A study of Homo sapiens with 6 samples.

Results

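The genes described here are 51 laminins and matrix glycoproteins. They were taken by gene symbol from a deposited table of 61806 genes, each symbol matched 1 row, and collagens were left out. The RNA came from U87-MG, an established cell line from a human glioblastoma, which the labels call glioma. It was sequenced as 3 libraries titled NC, the negative control, with the genotype given as wildtype, and 3 libraries titled GRIK1 siRNA 1, 2 and 3, with the genotype given as GRIK1 knockdown. The study asked what changes downstream when GRIK1, which encodes a kainate-type glutamate receptor subunit, is knocked down. All 6 libraries come from 1 cell line, nothing in the sources used here states that they are separate cultures, and p-values therefore measure the spread between these libraries, which may be technical. The study designed several siRNA sequences and states that the most efficient was taken on to its later experiments, the deposited design text names shRNA, and the labels do not say whether the numbers 1 to 3 are replicates or sequences.

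Laminins are trimers of an alpha, a beta and a gamma chain that polymerize into the sheet of the basement membrane, where nidogens, perlecan and agrin join them to type IV collagen and to cells. Fibronectin, tenascins, thrombospondins, SPARC and TGFBI lie in the looser matrix and bind integrins, collagens or growth factors. Fibrillins build the microfibrils that carry elastin and latent TGF-beta. In the brain, laminins surround vessels and lecticans such as brevican fill the space between cells, and glioblastoma cells are known to lay down tenascin-C and fibronectin that normal brain tissue has little of.

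Total counts lay between 11099909 and 14006968 per library. GRIK1, the targeted gene, did not fall in these libraries, though the study reports an efficient knockdown in U87-MG cells. It had 18, 9 and 8 reads in NC 1 to 3 and 15, 20 and 20 in the rest. At 0.13 to 0.38 FPKM its comparison rests on few reads. The difference was 0.12 on the log2(FPKM + 1) scale, with p = 0.4 in an exact permutation test, two-sided, whose smallest possible p here is 0.1. The 3 libraries are therefore called the libraries labelled GRIK1 siRNA. NC library 3 stood apart from the other 5. Ribosomal protein genes took 9.37% of its counts against 4.79% to 5.50% elsewhere, and its correlation with the other NC libraries across the tested genes was 0.964 and 0.968 on the log2 CPM scale, against 0.990 between those 2. VIM and CD44, which mesenchymal glioma cells express, were at 825 to 1076 and 50.8 to 71.6 FPKM, while the astroglial markers GFAP, S100B, SOX2 and AQP4 were at or under 0.28 FPKM in each library. The other glioma markers examined, NES and OLIG2, were at 0.21 to 0.69 and 0.41 to 0.83 FPKM. Markers of other cells were mixed. PTPRC and AIF1 (leukocytes), CDH5, PECAM1 and VWF (endothelium) and THY1 and PDGFRA (fibroblasts) were at or under 0.08 FPKM. The fibroblast markers COL1A1 and PDGFRB were at 26.9 to 280.3 and 1.97 to 5.6 FPKM. The leukocyte markers CD68 and CSF1R were at 2.11 to 4.06 and 0.87 to 1.28 FPKM. Of the epithelial markers, EPCAM was at 0.91 to 2.09 FPKM, KRT5 at or under 0.02 FPKM and CDH1 at 0.09 to 0.13 FPKM.

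Of the 51 genes, 32 had a mean of at least 0.5 FPKM (counted reads scaled to exonic length and to the library's total) over the 6 libraries and were tested, and 19 were below that filter. HSPG2, TNXB and BCAN had an NC mean under 0.5 FPKM and passed through the level in the other group, and MGP had an NC mean under 0.5 FPKM once NC library 3 was left out. The direction of these 4 genes is partly fixed by the filter. Counts were compared with the quasi-likelihood test of edgeR, with TMM scaling and Benjamini-Hochberg adjustment over all 15870 genes tested. Each log2 fold change sets the libraries labelled GRIK1 siRNA over NC and is followed by its standard error (SE).

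With GRIK1 siRNA on the label, SPARC, MATN2 and LAMA1 rose and EFEMP2 fell. These were the 4 of the 32 tested genes with an adjusted p under 0.05. The 3 that rose are 9.38% of the 32, against 1.61% of all genes tested, and the 1 that fell is 3.12%, against 1.48%. The genes were chosen with earlier results of these data known, which may raise these and later shares. SPARC and MATN2 also passed an absolute log2 fold change of 1, which 0.870% of all genes did as higher and 0.542% as lower, and no matrix gene did so as lower. The median log2 fold change of the 32 genes was 0.45, against -0.02 for all genes tested, and 24 of the 32 lay above 0. Among the 29 with an NC mean of at least 0.5 FPKM, a restriction chosen after the data were seen, the median was 0.40 and 21 lay above 0. In bulk RNA, fewer cells that make a transcript and less of it per cell cannot be told apart.

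**Figure D1:**
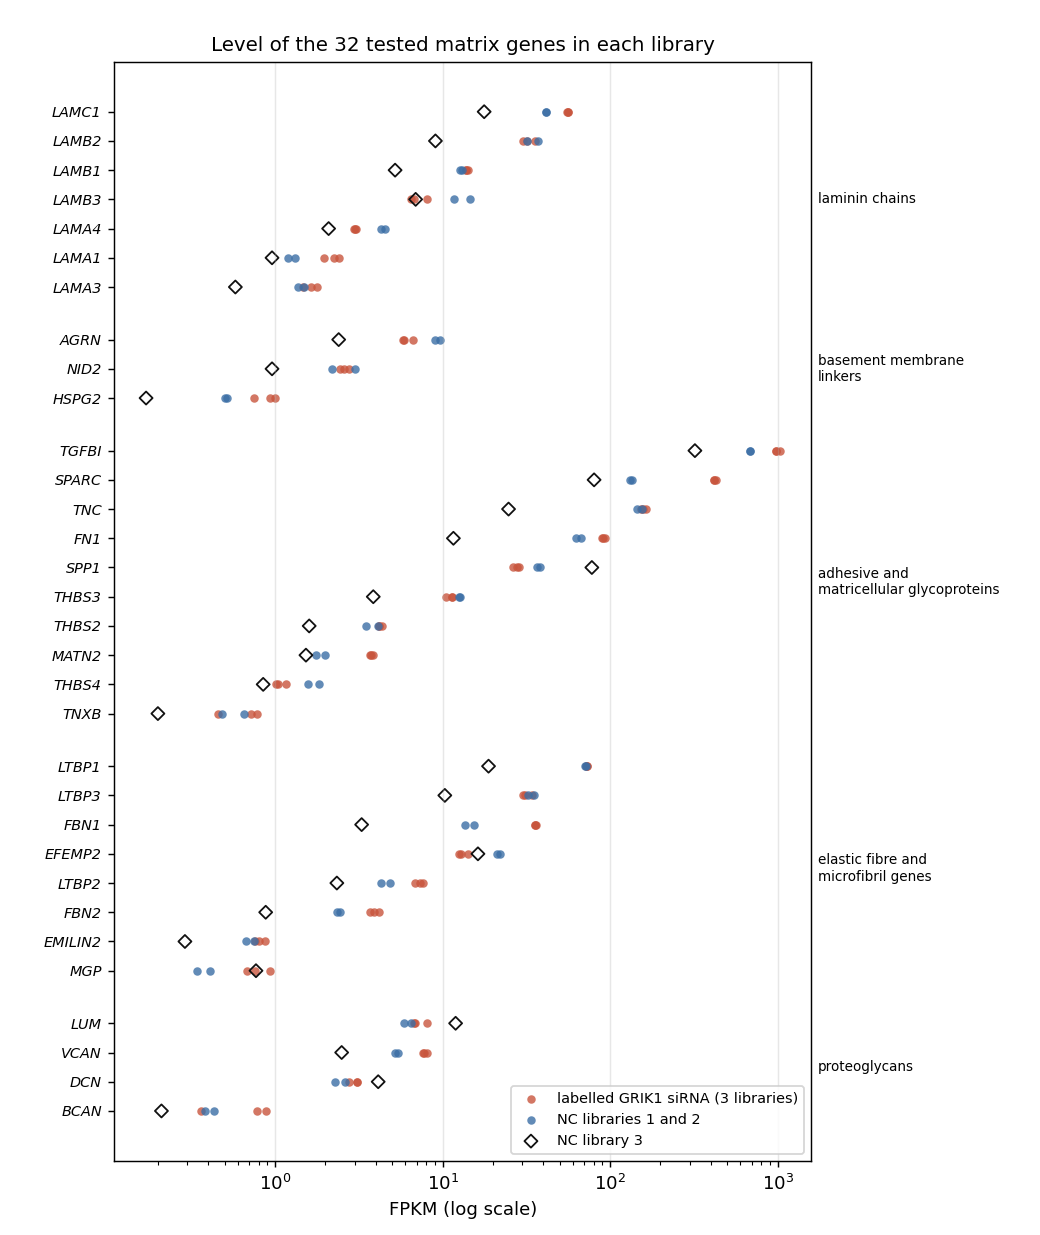
FPKM of the 32 tested matrix genes on a log axis, 1 row per gene grouped by role, with a filled point for each of the 3 libraries labelled GRIK1 siRNA and for NC libraries 1 and 2 and an open diamond for NC library 3. TGFBI is highest, between 321 and 1027 FPKM, and NC library 3 lies to the left of most rows.

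NC library 3 differed from NC libraries 1 and 2 in many of the matrix genes. On TMM-normalized CPM it was the lowest of the 6 libraries for 26 of the 32 matrix genes (81.2%), against 35.8% of all genes tested, and the highest for 3 (9.38%), against 35.5%. Its log2 ratio to the mean of NC libraries 1 and 2 had a median of -1.06 for the 32 genes and -0.04 for all genes. TNC, at -2.42, and FN1, at -2.30, were the lowest of them, and SPP1, at 1.24, the highest. The tested matrix genes are long, with a median exonic size of 8081 bases. The third of all tested genes with the longest exonic size (median 8592 bases) had a median ratio of -0.08. Among the matrix genes, the 8 of middle size had a median of -0.64 and the 24 among the longest -1.12. A fit with an offset for exonic size called 3 higher and 1 lower, as without it. What set NC library 3 apart was not tested.

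**Figure D2:**
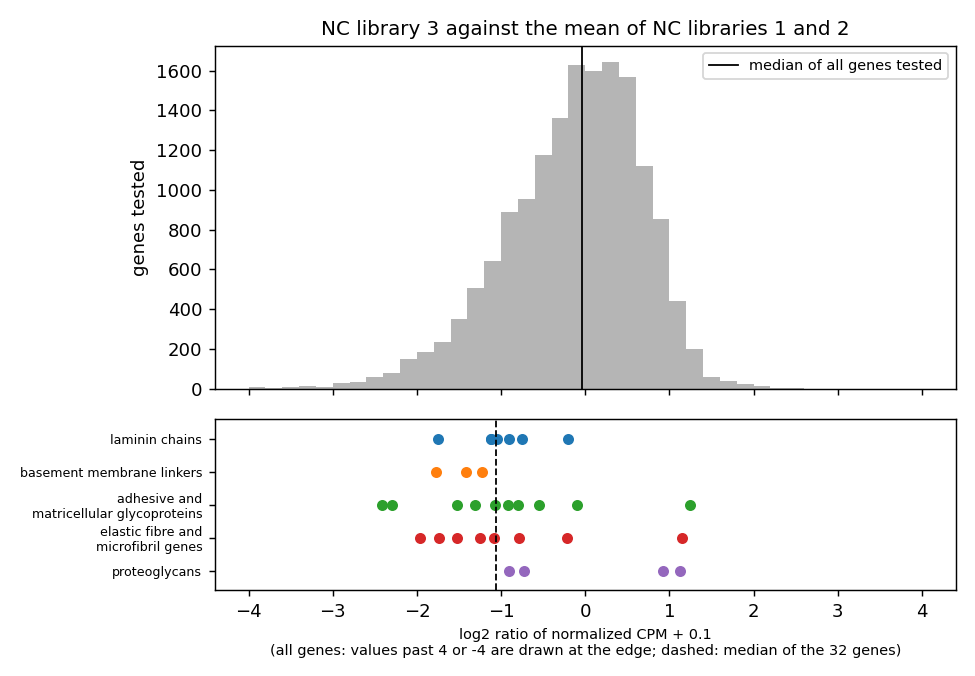
Log2 ratio of normalized CPM (plus 0.1) in NC library 3 to the mean of NC libraries 1 and 2, as a histogram over all 15870 genes tested (upper panel) and as points for the 32 matrix genes by role (lower panel). The matrix genes center at -1.06 and all genes at -0.04, with SPP1, MGP, LUM and DCN on the right.

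Without NC library 3, which leaves 2 NC libraries against 3, 13 of the 32 genes were higher (40.6%, against 16.9% of all genes tested) and 7 were lower (21.9%, against 18.3%). Past both thresholds were 3 genes as higher (9.38%, against 2.09%) and 0 as lower (against 1.00%). Among the 28 genes left without HSPG2, TNXB, BCAN and MGP, 11 were higher (39.3%), 7 lower and 2 higher past both thresholds (7.14%), a restriction also chosen after the data were seen. SPARC, MATN2, LAMA1 and EFEMP2 were among the 20 of the 32 that passed in this fit, with the same directions, though MATN2 then lay under the fold threshold. The median of the 32 fell to 0.18, and that of the 28 was 0.14, against 0.01 for all genes. The higher genes were SPARC, FBN1, MGP, MATN2, LAMA1, HSPG2, FBN2, LTBP2, VCAN, TGFBI, FN1, LAMC1 and DCN, and the lower ones LAMB3, EFEMP2, THBS4, AGRN, LAMA4, SPP1 and THBS3. With any other single library left out, 0 genes of the whole table passed, while 8 to 10 of the 32 as higher and 2 to 3 as lower had an unadjusted p under 0.05. Together these are 31.2% to 40.6% of the 32, against 14.1% to 27.9% of all genes in the same fits. HSPG2 is counted in each of these edgeR fits, with an unadjusted p of at most 0.0446. Shares without HSPG2, TNXB, BCAN and MGP were not computed for them. DESeq2 on all 6 libraries called 9 matrix genes higher (28.1%, against 5.21%) and 2 lower (6.25%, against 4.84%). All 11 of these are among the 20. HSPG2, which passed the filter only through the libraries labelled GRIK1 siRNA, is 1 of the 9 that DESeq2 called higher.

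**Figure D3:**
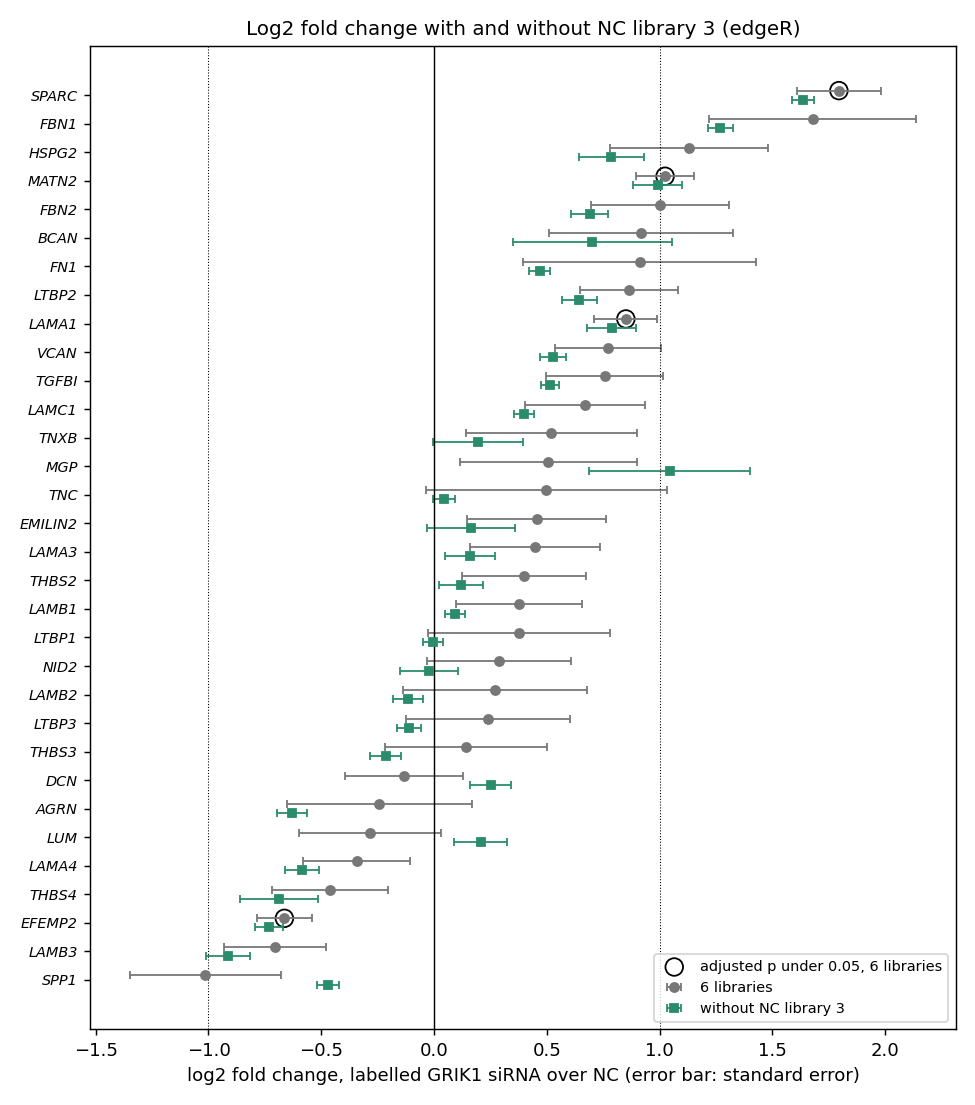
Log2 fold change of each tested matrix gene, labelled GRIK1 siRNA over NC, from edgeR on all 6 libraries (circles) and without NC library 3 (squares), with standard errors, and rings around the 4 genes with an adjusted p under 0.05 on all 6. SPARC is highest in both fits, at 1.80 and 1.64, and LTBP1, NID2, LAMB2, LTBP3, THBS3, DCN and LUM change sides.

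Groups were also compared by range, on TMM-normalized CPM. All 3 libraries labelled GRIK1 siRNA lay above all 3 NC libraries for 12 of the 32 genes (37.5%, against 19.4% of all genes tested) and below them for 2, EFEMP2 and SPP1 (6.25%, against 19.0%). Without HSPG2, TNXB, BCAN and MGP the first count was 11 of 28 (39.3%).

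SPARC encodes a secreted calcium- and collagen-binding glycoprotein that modulates cell adhesion (ENSG00000113140, chromosome 5 from 151661096 to 151686975, minus strand). Its levels were 132, 135 and 80.3 FPKM in NC libraries 1, 2 and 3 and 429, 419 and 418 FPKM in libraries 1, 2 and 3 labelled GRIK1 siRNA. The groups lie far apart, and NC library 3 is the lowest of the 6. SPARC rose from 116 ± 30.7 to 422 ± 5.89 FPKM (SD, n = 3 each). The difference fitted by edgeR on counts was 3.47-fold, or 1.80 ± 0.19 (SE, adjusted p = 0.0191) on the log2 scale. It was 1.64 (adjusted p = 3.52e-13) when NC library 3 was left out. Over the mean of all 6 libraries SPARC was the second most abundant of the 51 genes per exon length, after TGFBI, but TNC was above it in NC libraries 1 and 2.

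MATN2 encodes matrilin 2, an adaptor that joins other filamentous matrix components (ENSG00000132561, chromosome 8 from 97868840 to 98036724, plus strand). It stood at 1.75, 1.98 and 1.53 FPKM in NC libraries 1, 2 and 3 and 3.87, 3.71 and 3.76 FPKM in libraries 1, 2 and 3 labelled GRIK1 siRNA, so the groups do not overlap and NC library 3 is close to the other 2. The log2 fold change was 1.02 ± 0.13 (SE, adjusted p = 0.0238) and, without NC library 3, 0.99 (adjusted p = 2.11e-06), from edgeR. RPL30, a ribosomal protein gene with up to 9682 reads in a library, overlaps MATN2 on the opposite strand, and the strand setting of the counting is not given in the sources used here, so MATN2 counts are uncertain.

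**Figure D4:**
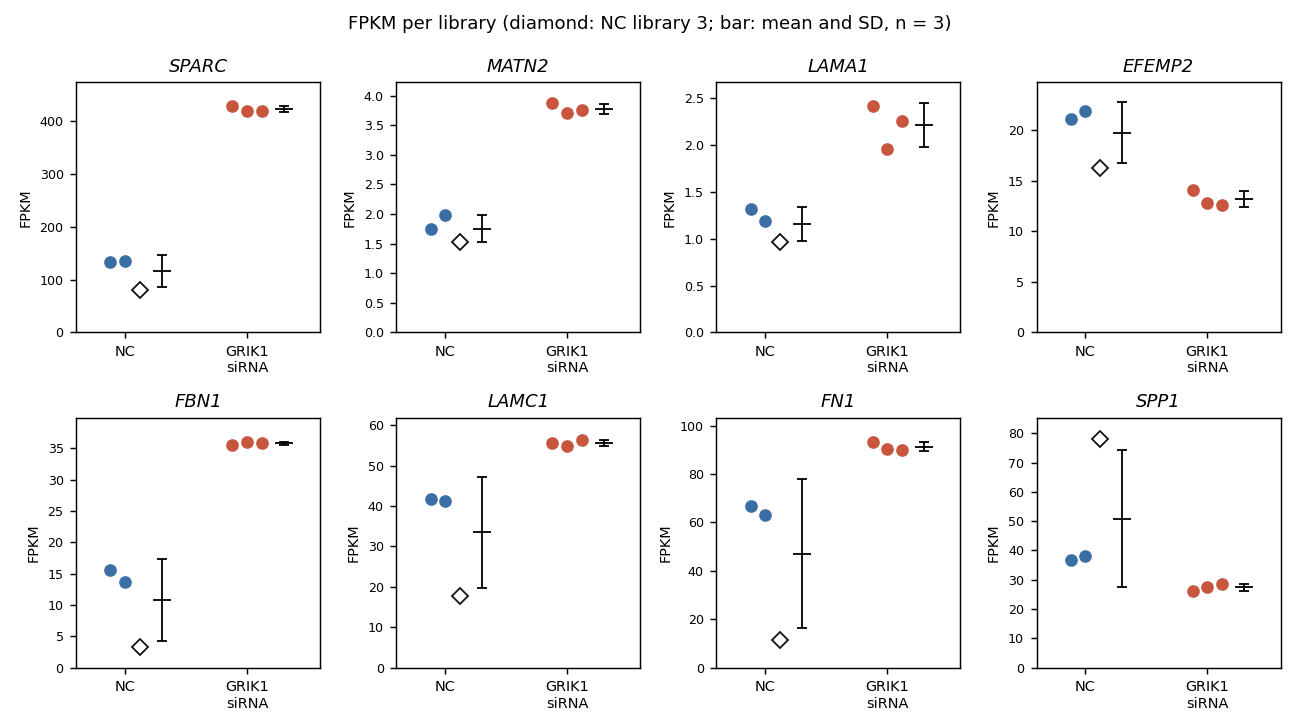
FPKM in each library for 8 matrix genes on linear axes from 0, NC on the left and labelled GRIK1 siRNA on the right, with an open diamond for NC library 3 and a bar for the mean and SD of each group (n = 3). SPARC, MATN2, LAMA1, FBN1, LAMC1 and FN1 lie higher in each library labelled GRIK1 siRNA, and EFEMP2 and SPP1 lie lower.

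Laminin chains differed among themselves in level. Per exon length, LAMC1, the gamma chain common to most laminins, was highest (mean 44.6 FPKM over the 6 libraries), followed by LAMB2 (29.4 FPKM) and LAMB1 (12.1 FPKM). The alpha chains were lower, with LAMA4 at 3.33 FPKM, LAMA1 at 1.68 FPKM and LAMA3 at 1.39 FPKM. LAMA2, LAMA5 and LAMC3 were below the filter. Of the 7 tested chains 1 rose and 0 fell (median log2 fold change 0.38), against 1.61% and 1.48% of all genes tested, and without NC library 3 it was 2 and 2, against 16.9% and 18.3%, with a median of 0.09. LAMC3 had 0 reads in each library, which allows up to 3 reads per library at 95% confidence for counting error.

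LAMA1 encodes the alpha chain of the laminin of early embryonic basement membranes (ENSG00000101680, chromosome 18 from 6941742 to 7117797, minus strand). Its levels were 1.32, 1.19 and 0.96 FPKM in NC libraries 1, 2 and 3 and 2.42, 1.96 and 2.25 FPKM in libraries 1, 2 and 3 labelled GRIK1 siRNA. Each library labelled GRIK1 siRNA was above each NC library. LAMA1 rose by 0.85 ± 0.14 (SE, adjusted p = 0.0338) on the log2 scale, and it had 0.79 (adjusted p = 2.24e-05) without NC library 3, from edgeR. In limma it did not pass (adjusted p = 0.059 on log2(FPKM + 1) and 0.0647 on log2(FPKM + 0.1)).

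LAMC1 (ENSG00000135862, chromosome 1 from 183023420 to 183145592, plus strand) was at 41.7, 41.3 and 17.7 FPKM in NC libraries 1, 2 and 3 and 55.7, 54.95 and 56.4 FPKM in libraries 1, 2 and 3 labelled GRIK1 siRNA. The groups do not overlap, but NC libraries 1 and 2 lie nearer to the other group than to NC library 3. Its log2 fold change was 0.67 ± 0.27 (SE, adjusted p = 0.179) and, without NC library 3, 0.40 (adjusted p = 3.39e-06), from edgeR.

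LAMB2, the beta chain found in synaptic and vascular basement membranes, stood at 37.3, 32.05 and 9.07 FPKM in NC libraries 1, 2 and 3 and 35.6, 32.1 and 30.1 FPKM in libraries 1, 2 and 3 labelled GRIK1 siRNA. NC libraries 1 and 2 are level with the other group here. With all 6 libraries its log2 fold change was 0.27 ± 0.41 (SE, adjusted p = 0.701), and without NC library 3 it was -0.12 (adjusted p = 0.195), from edgeR. LAMB1 had 0.38 ± 0.28 (SE, adjusted p = 0.419) and 0.09 (adjusted p = 0.117) in the same 2 fits.

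LAMB3 and LAMA4 lay on the other side. LAMB3, the beta chain of the epithelial anchoring laminin, was at 14.6, 11.8 and 6.91 FPKM in NC libraries 1, 2 and 3 and 8.04, 6.5 and 6.79 FPKM in libraries 1, 2 and 3 labelled GRIK1 siRNA. NC library 3 falls among the libraries labelled GRIK1 siRNA, and NC libraries 1 and 2 lie above them. It had -0.71 ± 0.23 (SE, adjusted p = 0.121) with all libraries and -0.91 (adjusted p = 1.77e-06) without NC library 3. LAMA4, the alpha chain of vascular and mesenchymal laminins, was at 4.32, 4.55 and 2.09 against 3.01, 2.97 and 3.04 FPKM, with -0.34 (adjusted p = 0.387) and -0.59 (adjusted p = 1.07e-05). LAMA3, the alpha partner of LAMB3, did not pass in either fit (0.45 and 0.16).

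Among the linkers of the basement membrane, 3 were tested and 0 passed, with 1 higher and 1 lower when NC library 3 was left out (all genes 16.9% and 18.3%). AGRN was the most abundant. AGRN encodes agrin, a heparan sulfate proteoglycan that binds laminin and dystroglycan, and its levels were 9.68, 8.96 and 2.4 FPKM in NC libraries 1, 2 and 3 and 6.7, 5.85 and 5.84 FPKM in libraries 1, 2 and 3 labelled GRIK1 siRNA. The libraries labelled GRIK1 siRNA lie between NC library 3 and the other NC libraries. Its log2 fold change was -0.24 ± 0.41 (SE, adjusted p = 0.733) with all libraries and -0.63 (adjusted p = 1.63e-06) without NC library 3. HSPG2, which encodes perlecan, the large heparan sulfate proteoglycan of basement membranes, went the other way, at 0.52, 0.5 and 0.17 FPKM in NC libraries 1, 2 and 3 and 0.93, 0.75 and 1.00 FPKM in libraries 1, 2 and 3 labelled GRIK1 siRNA. HSPG2 passed the filter only through the libraries labelled GRIK1 siRNA. Its groups do not overlap, and its log2 fold change was 1.13 ± 0.35 (SE, adjusted p = 0.115) and, without NC library 3, 0.79 (adjusted p = 3.88e-04). NID2, a nidogen, was at 2.99, 2.18 and 0.96 against 2.75, 2.45 and 2.57 FPKM and passed in neither fit, at 0.29 ± 0.32 (SE, adjusted p = 0.593) and -0.02 (adjusted p = 0.921). Its relative NID1 had 13, 12 and 26 reads in the NC libraries and 15, 14 and 13 reads in the others. PXDN, the peroxidase that cross-links type IV collagen, had at most 5 reads in a library.

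Adhesive and matricellular genes held the highest levels of the set. Of 10 tested, SPARC and MATN2 rose and 0 fell (median log2 fold change 0.51, all genes 1.61% and 1.48%), and leaving out NC library 3 gave 4 and 3 (median 0.16, all genes 16.9% and 18.3%). Both medians include TNXB, which passed the filter only through the libraries labelled GRIK1 siRNA, and they were not computed without TNXB. TGFBI, a TGF-beta-induced protein that binds integrins and collagens, was at 685, 687 and 321 FPKM in NC libraries 1, 2 and 3 and 1027, 979.7 and 984 FPKM in libraries 1, 2 and 3 labelled GRIK1 siRNA (ENSG00000120708, chromosome 5 from 136028988 to 136063818, plus strand). The groups do not overlap. Its log2 fold change was 0.76 ± 0.26 (SE, adjusted p = 0.135) and, without NC library 3, 0.51 (adjusted p = 4.72e-08), from edgeR.

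FN1 encodes fibronectin, the main ligand of the integrin of ITGA5 and ITGB1 (ENSG00000115414, chromosome 2 from 215360440 to 215436073, minus strand). It was at 66.7, 62.9 and 11.6 FPKM in NC libraries 1, 2 and 3 and 93.3, 90.3 and 89.9 FPKM in libraries 1, 2 and 3 labelled GRIK1 siRNA. NC library 3 is far below the other NC libraries, and the other group lies above all 3. FN1 had 0.91 ± 0.52 (SE, adjusted p = 0.302) with all libraries and 0.47 (adjusted p = 7.70e-07) without NC library 3.

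TNC, tenascin-C, was at 156, 144 and 24.8 FPKM in NC libraries 1, 2 and 3 and 163, 156 and 153 FPKM in libraries 1, 2 and 3 labelled GRIK1 siRNA. Except for NC library 3, the libraries lie within a narrow range. Its log2 fold change was 0.50 ± 0.53 (SE, adjusted p = 0.578) and, without NC library 3, 0.04 (adjusted p = 0.527). SPP1, osteopontin, a secreted ligand of integrins and CD44, showed the opposite pattern in NC library 3, at 36.6, 38.1 and 77.9 FPKM in NC libraries 1, 2 and 3 and 26.2, 27.6 and 28.4 FPKM in libraries 1, 2 and 3 labelled GRIK1 siRNA. NC library 3 is the highest of the 6 and the groups do not overlap. SPP1 had -1.01 ± 0.34 (SE, adjusted p = 0.129) with all libraries and -0.47 (adjusted p = 1.04e-06) without NC library 3.

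Of the thrombospondins, THBS3 was the most abundant (12.7, 12.6 and 3.86 against 11.3, 10.5 and 11.4 FPKM), followed by THBS2 (4.14, 3.49 and 1.6 against 4.15, 4.15 and 4.35 FPKM) and THBS4 (1.82, 1.58 and 0.85 against 1.02, 1.17 and 1.04 FPKM), while THBS1 had 16, 13 and 24 reads in the NC libraries and 17, 11 and 25 reads in the others. None of the 3 tested members passed with all libraries. In the fit without NC library 3, THBS4 had -0.69 (adjusted p = 0.00516) and THBS3 had -0.21 (adjusted p = 0.023), both lower, and THBS2 had 0.12 (adjusted p = 0.366). TNXB had 0.52 ± 0.38 (SE, adjusted p = 0.412), and its counts are uncertain because a near-identical partial copy lies beside it and ATF6B overlaps it on the same strand. POSTN, SPARCL1 and VTN were below the filter, with at most 67 reads in a library.

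Fibrillin and latent TGF-beta binding protein genes made up 5 of the 8 tested genes of the elastic fibre group, which holds 15 genes in all. Of the 8, 0 rose and 1 fell (median 0.48, all genes 1.61% and 1.48%), and leaving out NC library 3 gave 4 and 1, MGP among the 4 (median 0.40, all genes 16.9% and 18.3%). The second median includes MGP, whose direction in that fit is partly fixed by the filter, and it was not computed without MGP. FBN1 encodes fibrillin 1, the main microfibril protein (ENSG00000166147, chromosome 15 from 48408313 to 48645721, minus strand). Its levels were 15.5, 13.7 and 3.29 FPKM in NC libraries 1, 2 and 3 and 35.5, 35.9 and 35.8 FPKM in libraries 1, 2 and 3 labelled GRIK1 siRNA. The groups lie far apart, with the 3 libraries labelled GRIK1 siRNA close together and NC library 3 lowest. The log2 fold change of FBN1 was 1.68 ± 0.46 (SE, adjusted p = 0.0902), the second largest of the 32 and not past the adjusted threshold, and without NC library 3 it was 1.27 (adjusted p = 3.37e-11), from edgeR. FBN2, the fibrillin of developing tissue (ENSG00000138829, chromosome 5 from 128257909 to 128659185, minus strand), was at 2.34, 2.44 and 0.88 FPKM in NC libraries 1, 2 and 3 and 3.7, 3.91 and 4.16 FPKM in libraries 1, 2 and 3 labelled GRIK1 siRNA, and its groups do not overlap. It had 1.001 ± 0.31 (SE, adjusted p = 0.111) and 0.69 (adjusted p = 5.34e-06) in the same fits.

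EFEMP2 encodes fibulin 4, which brings lysyl oxidase to elastin (ENSG00000172638, chromosome 11 from 65866441 to 65873592, minus strand). Its levels were 21.1, 21.9 and 16.3 FPKM in NC libraries 1, 2 and 3 and 14.1, 12.8 and 12.6 FPKM in libraries 1, 2 and 3 labelled GRIK1 siRNA. Each library labelled GRIK1 siRNA was below each NC library, and NC library 3 lies nearest to them. EFEMP2 fell from 19.8 ± 3.05 to 13.2 ± 0.825 FPKM (SD, n = 3 each). The log2 fold change fitted by edgeR on counts was -0.66 ± 0.12 (SE, adjusted p = 0.0392), and EFEMP2 had -0.73 (adjusted p = 9.07e-08) without NC library 3. In limma it did not pass (adjusted p = 0.0839 and 0.0924 on the same scales as for LAMA1). MUS81 overlaps EFEMP2 on the opposite strand, with up to 295 reads.

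LTBP1, LTBP2 and LTBP3 belong to the family that holds TGF-beta latent in the matrix. LTBP1 was at 71.1, 71.3 and 18.8 FPKM in NC libraries 1, 2 and 3 and 71.8, 72.5 and 72.5 FPKM in libraries 1, 2 and 3 labelled GRIK1 siRNA, with 5 libraries close together and NC library 3 far below. Its log2 fold change was 0.38 ± 0.40 (SE, adjusted p = 0.578) with all libraries and -0.0047 (adjusted p = 0.95) without NC library 3. LTBP3 was at 35.01, 32.4 and 10.3 against 33.98, 31.1 and 30.3 FPKM, with 0.24 ± 0.36 (SE, adjusted p = 0.698) and -0.11 (adjusted p = 0.124), and passed in neither fit. LTBP2, which does not bind latent TGF-beta, was at 4.84, 4.32 and 2.34 against 7.67, 7.33 and 6.88 FPKM, with groups apart, and had 0.86 ± 0.22 (SE, adjusted p = 0.0748) and 0.64 (adjusted p = 4.12e-06). MGP, matrix Gla protein, an inhibitor of calcification, was at 0.41, 0.34 and 0.77 against 0.76, 0.93 and 0.68 FPKM, so NC library 3 lies within the other group. MGP had 0.51 ± 0.39 (SE, adjusted p = 0.439) with all libraries and 1.04 (adjusted p = 0.0309) without NC library 3. EMILIN2 passed in neither fit (0.46 and 0.16). Opposite-strand neighbours with many reads also overlap EMILIN2 (LPIN2, up to 1172 reads), LAMB1 (DLD, up to 3450), NID2 (RTRAF, up to 1811) and THBS3 (MTX1, up to 311), so these counts are uncertain in the same way as those of MATN2.

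Elastin itself was below the filter. ELN had 16, 7 and 9 reads in the NC libraries and 19, 56 and 50 reads in the others, so library 1 of those labelled GRIK1 siRNA lies near the NC libraries and the other 2 lie above. In a fit of all genes with a count, ELN rose by 1.75 ± 0.42 on the log2 scale (SE, adjusted p = 0.0169 from edgeR), and ELN-AS1 overlaps it on the opposite strand with up to 53 reads. That fit covered 49 of the 51 genes and called 10 higher (20.4%, against 2.13% of the genes in it) and 3 lower (6.12%, against 1.98%). ELN was the only one of the 13 that had not been tested with the filter. LAMA5, the alpha chain of many adult basement membranes, had 19, 23 and 9 reads in the NC libraries and 44, 39 and 49 reads in the others, 1.16 ± 0.35 (SE, adjusted p = 0.0609) in that fit, with ADRM1 overlapping it on the opposite strand. FBLN1, FBLN2, FBLN5, EFEMP1, EMILIN1 and AEBP1 had at most 37 reads in a library.

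The bases before the start site are shown for SPARC and FBN1, which had the highest log2 fold changes, for FBN2, the fibrillin relative of FBN1, and for EFEMP2, which fell. Each is the 250 bases upstream of the RefSeq start on GRCh38.p14, all on the minus strand, at chr5:151686916-151687165 for SPARC, chr15:48644971-48645220 for FBN1, chr5:128538246-128538495 for FBN2 and chr11:65872801-65873050 for EFEMP2. In the deposited table, SPARC, FBN1, FBN2 and EFEMP2 reach further upstream, into or past these windows. Capitals mark matches to 4 motifs searched on both strands, TATAAA (the TATA box), GGGCGG (the GC box of SP1 factors), TGANTCA (the AP-1 site) and CATTCC (the core bound by TEAD factors), where neighbouring GGGCGG matches may overlap each other.
SPARC: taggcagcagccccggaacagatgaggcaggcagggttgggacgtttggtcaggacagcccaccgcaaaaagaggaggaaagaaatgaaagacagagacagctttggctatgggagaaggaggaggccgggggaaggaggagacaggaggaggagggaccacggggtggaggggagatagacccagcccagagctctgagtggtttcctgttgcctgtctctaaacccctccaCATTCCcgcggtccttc
FBN1: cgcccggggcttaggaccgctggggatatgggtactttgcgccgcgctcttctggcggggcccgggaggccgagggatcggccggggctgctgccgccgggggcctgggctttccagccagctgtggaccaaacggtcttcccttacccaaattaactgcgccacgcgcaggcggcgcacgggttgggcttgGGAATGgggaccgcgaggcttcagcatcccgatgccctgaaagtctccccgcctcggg
FBN2: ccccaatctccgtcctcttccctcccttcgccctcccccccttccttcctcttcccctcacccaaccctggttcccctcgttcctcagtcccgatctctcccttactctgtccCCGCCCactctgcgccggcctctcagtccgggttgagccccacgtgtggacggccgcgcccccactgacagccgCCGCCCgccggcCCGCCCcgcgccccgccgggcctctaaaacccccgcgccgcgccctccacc
EFEMP2: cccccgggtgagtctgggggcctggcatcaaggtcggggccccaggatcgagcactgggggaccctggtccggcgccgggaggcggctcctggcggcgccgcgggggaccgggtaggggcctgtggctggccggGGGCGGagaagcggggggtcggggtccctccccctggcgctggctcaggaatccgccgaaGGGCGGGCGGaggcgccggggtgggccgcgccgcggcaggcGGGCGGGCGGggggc

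SPARC and FBN1 each held 1 CATTCC match, starting 17 and 58 bases before the start site, and no GGGCGG. FBN2 held 3 GGGCGG matches and EFEMP2 held 5, and neither held CATTCC. None of the 4 windows held TATAAA or TGANTCA. The RefSeq table gave 49 such windows for 39 of the 51 genes, some with several starts. CATTCC was in 8 of the 49 (16.3%), against 11.9% of all 35116 windows, and GGGCGG was in 33 (67.3%), against 42.6%. TATAAA was in 4 (8.16%), against 10.7%, and TGANTCA in 4 (8.16%), against 6.57%, those of LAMA3, LAMB3, EMILIN2 and POSTN. A match of letters is a description and not a binding site.

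Proteoglycans were of moderate or low level. Of 4 tested 0 passed (median 0.32), and 2 were higher and 0 lower when NC library 3 was left out (median 0.39, all genes 16.9% and 18.3%). Both medians include BCAN, which passed the filter only through the libraries labelled GRIK1 siRNA. Of the others, VCAN lay above 0 and DCN and LUM below 0 with all libraries, so the sign of the first median depends on BCAN. VCAN encodes versican, a lectican of loose and provisional matrix (ENSG00000038427, chromosome 5 from 83471618 to 83582303, plus strand). It was at 5.43, 5.21 and 2.5 FPKM in NC libraries 1, 2 and 3 and 7.71, 8.04 and 7.65 FPKM in libraries 1, 2 and 3 labelled GRIK1 siRNA, and the groups do not overlap. VCAN had 0.77 ± 0.24 (SE, adjusted p = 0.111) with all libraries and 0.53 (adjusted p = 1.59e-06) without NC library 3. BCAN, brevican, the brain lectican, was at 0.38, 0.43 and 0.21 FPKM in NC libraries 1, 2 and 3 and 0.36, 0.88 and 0.78 FPKM in libraries 1, 2 and 3 labelled GRIK1 siRNA, where library 1 of those labelled GRIK1 siRNA lies within the NC range, and it had 0.92 ± 0.41 (SE, adjusted p = 0.208) and 0.70 (adjusted p = 0.138). The small leucine-rich proteoglycans lumican and decorin were highest in NC library 3. LUM was at 6.51, 5.86 and 11.97 against 6.89, 6.76 and 8.11 FPKM, with -0.28 ± 0.31 (SE, adjusted p = 0.594) and 0.21 (adjusted p = 0.189), and passed in neither fit. DCN was at 2.29, 2.62 and 4.13 against 2.78, 3.07 and 3.07 FPKM, with -0.13 ± 0.26 (SE, adjusted p = 0.772) with all libraries and 0.25 (adjusted p = 0.0415) without NC library 3. ACAN had 0 reads in each library, with the limit given for LAMC3, NCAN had 1 read in 1 library, and BGN had at most 7.

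The receptors that hold cells to these proteins were examined as lists. Of 7 tested laminin receptor genes, ITGA2, an integrin alpha chain for collagen and laminin, rose and passed both thresholds, at 5.21, 4.93 and 3.87 FPKM in NC libraries 1, 2 and 3 and 10.04, 9.83 and 10.3 FPKM in libraries 1, 2 and 3 labelled GRIK1 siRNA, with 1.03 ± 0.12 (SE, adjusted p = 0.0205), from edgeR. It had 0.96 (adjusted p = 1.03e-08) without NC library 3, under the fold threshold. With all 6 libraries, 1.61% of all genes tested rose, and 0.870% rose past both thresholds. The median of the 7 was 0.26, and 0.15 when NC library 3 was left out. In that fit 4 of them were higher (ITGA2, ITGA7, DAG1 and ITGB1) and 1 lower (ITGA1), against 16.9% and 18.3% of all genes tested. Of 11 tested receptors of fibronectin and other glycoproteins, 0 had an adjusted p under 0.05 in edgeR, 5 had an unadjusted p under 0.05 (against 25.1% of all genes tested), and DESeq2 called 4 (against 5.21% of all genes as higher and 4.84% as lower). Their median log2 fold change was -0.22. Without NC library 3, ITGA5 and ITGAV were higher, at 0.60 (adjusted p = 2.52e-07) and 0.27 (adjusted p = 2.47e-04), and 7 were lower, among them ITGB8 at -0.71 (adjusted p = 1.91e-05) and SDC3 at -0.53 (adjusted p = 2.01e-04).

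TGF-beta drives the transcription of many matrix genes and is stored by the latent binding proteins, so its genes were examined too. Of 14 tested, SMAD3, a transducer of the signal, fell, at 20.4, 20.6 and 15.7 FPKM in NC libraries 1, 2 and 3 and 13.2, 13.5 and 13.2 FPKM in libraries 1, 2 and 3 labelled GRIK1 siRNA, with -0.59 ± 0.12 (SE, adjusted p = 0.0445), from edgeR, and 0 rose. Of all genes tested with the 6 libraries, 1.48% fell and 1.61% rose. The median of the 14 was -0.38, with 10 below 0, against 0.45 for the 32 matrix genes and -0.02 for all genes tested. When NC library 3 was left out, these medians were -0.48, 0.18 and 0.01 in the same order. The 32 include HSPG2, TNXB, BCAN and MGP, whose direction is partly fixed by the filter. TGFB1, which encodes the ligand, was at 31.96, 32.1 and 25.4 against 23.2, 20.5 and 20.3 FPKM, with -0.56 ± 0.12 (SE, adjusted p = 0.0503). CCN2, a matricellular target of TGF-beta and YAP, was at 19.96, 20.3 and 9.25 against 9.7, 7.9 and 8.29 FPKM, with -0.997 ± 0.26 (SE, adjusted p = 0.0782). Without NC library 3, 8 of the 14 were lower, CCN2 at -1.25 (adjusted p = 3.41e-08) past both thresholds, and 1, TGFBR2, was higher at 0.17 (adjusted p = 0.014). Of all genes in that fit 18.3% were lower, 1.00% as lower past both thresholds, and 16.9% higher.

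**Figure D5:**
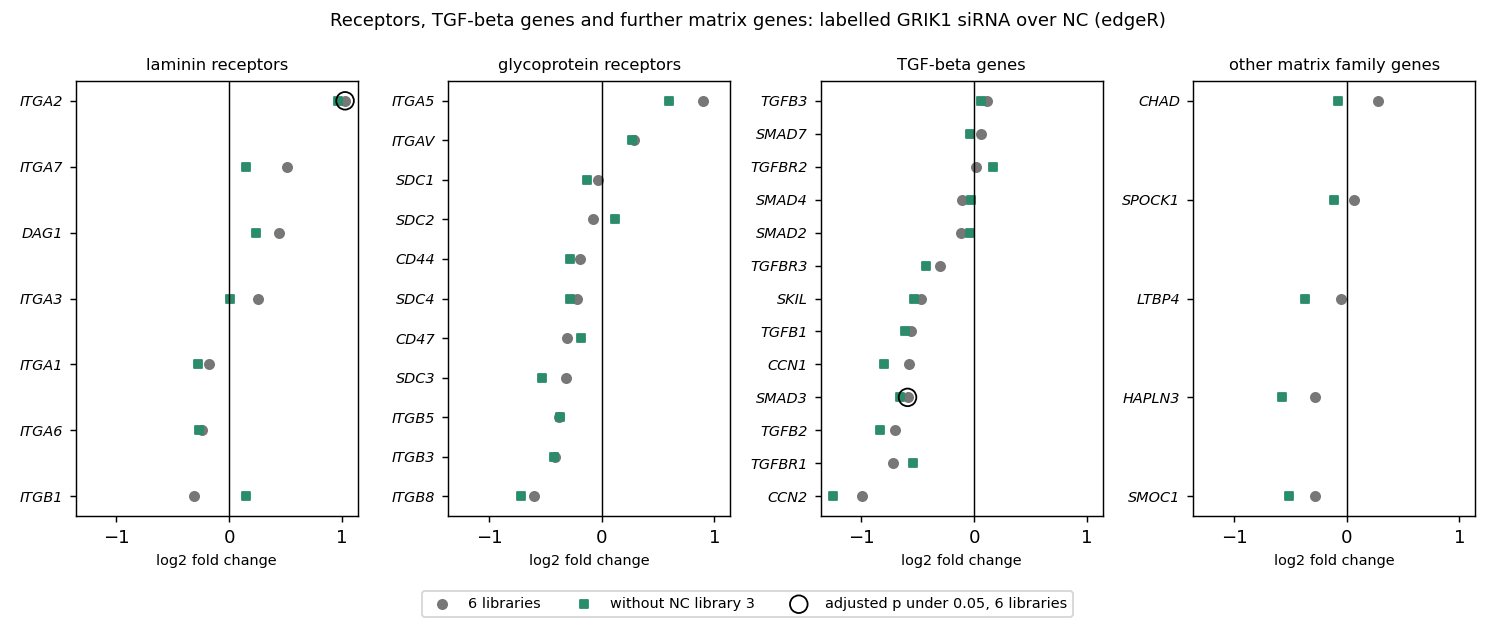
Log2 fold change, labelled GRIK1 siRNA over NC, of tested genes of 4 lists, with 2 genes left out of the drawing, from edgeR on all 6 libraries (circles) and without NC library 3 (squares), with rings around an adjusted p under 0.05 on all 6. ITGA2 and SMAD3 carry rings, and 10 of the TGF-beta genes drawn lie below 0 with all libraries.

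Further genes of the same matrix families, outside the 51, were mostly below the filter. Of 31, 25 were below it and 6 were tested, and these had 0.01 as their median log2 fold change and 0 calls in edgeR, 0 in DESeq2 and 0 at an unadjusted p under 0.05. Without NC library 3 their median was -0.24, with 5 of the 6 below 0, and SMOC1 had -0.51 (adjusted p = 1.47e-04) and LTBP4, a relative of LTBP1, had -0.37 (adjusted p = 0.0054), both lower, as were 18.3% of all genes tested. COL1A1, a collagen on the fibroblast marker list, was at 106, 98.6 and 26.9 FPKM in NC libraries 1, 2 and 3 and 280.3, 248 and 249 FPKM in libraries 1, 2 and 3 labelled GRIK1 siRNA. Its log2 fold change was 1.70 ± 0.42 (SE, adjusted p = 0.0744) and, without NC library 3, 1.31 (adjusted p = 4.28e-11). PDGFRB was at 1.97 to 5.6 FPKM, and THY1 and PDGFRA were near 0. The summed FPKM of the 4 fibroblast markers was 28.96 to 111 in the NC libraries and 253 to 286 in the others, and its part in the matrix result was not tested. Leukocyte markers summed to 3.36 to 4.27 against 4.70 to 5.13 FPKM from CD68 and CSF1R, and epithelial markers to 1.00 to 1.83 against 1.53 to 2.18 FPKM, mostly EPCAM. Their part was not tested either.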

How the data were processed

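The authors deposited whole-number read counts per gene and FPKM values for each library, without pooling. The submitters' processing notes name cutadapt 1.9.1, HISAT2, HTSeq and GRCh38, and the strand setting is not given in the sources used here. The deposited FPKM values equal count, exonic size and total count combined, for 100% of values within 0.006. In the table, 0 rows name no gene and 0 columns of values were left unassigned. Coordinates are those of the table, and 15 of the 51 genes have the same start and end in GENCODE 29.

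Genes whose mean FPKM reached 0.5 were tested on counts with the quasi-likelihood test of edgeR 4.0.16 (R 4.3.3, TMM scaling, no covariate, Benjamini-Hochberg adjustment over 15870 genes), with an adjusted p under 0.05 and, where stated, an absolute log2 fold change over 1. Every adjusted p in the text is from edgeR unless DESeq2 1.42.0 or limma 3.58.1 is named. The standard error is the absolute log2 fold change divided by the square root of the F statistic. GRIK1 was compared with an exact permutation test (scipy 1.17.1). The tests were tried on simulated counts. Alternatives were DESeq2, other scalings, filters and a robust fit, limma on log2(FPKM + 1) or log2(FPKM + 0.1), sample quality weights, the block, and leaving out each library. The exonic size offset (lowess span 0.3) was added after the data were seen.

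The members and lists were chosen with earlier results of these data known. Values are given in full for each gene with an adjusted p under 0.05, the 8 largest absolute log2 fold changes, the 2 highest levels in each role group, and each gene past both thresholds without NC library 3. The other members given with values were named after their values were seen. A few genes outside the members are counted in their lists but not reported here by name. Sequences are from RefSeq (GRCh38.p14), matched by symbol. Depth limits genes with few reads. Standard errors and SDs include the spread between libraries, and only the limit for a count of 0 covers counting error alone.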

Additional observations from a re-analysis of the deposited data

How the results depend on the processing

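With an adjusted p under 0.05, 3 matrix genes were higher and 1 lower as reported. These numbers were the same with median-of-ratios and upper-quartile scaling, filterByExpr, a mean FPKM of at least 1, a robust fit and the exonic size offset. They were 9 and 2 with DESeq2, 10 and 3 without a filter, and 13 and 6 with sample quality weights, which gave NC library 3 a weight of 0.0498. In limma on log2(FPKM + 1) and on log2(FPKM + 0.1) they were 2 and 0, without LAMA1 and EFEMP2. Leaving out single libraries gave 0 to 13 higher and 0 to 7 lower, with the upper ends without NC library 3 and 0 and 0 without any of the other 5. Past both thresholds, 2 were higher and 0 lower. DESeq2 gave 5 and 1, no filter 4 and 1, limma on log2(FPKM + 1) 1 and 0, a fold threshold of 1.5 gave 3 and 1, and leaving out single libraries 0 to 3 higher. For DESeq2, no filter, limma and the fold threshold of 1.5, shares of all genes past both thresholds were not computed. HSPG2, which passed the filter only through the libraries labelled GRIK1 siRNA, is among the 5 with DESeq2. Over all genes, 490 passed as reported, 1594 with DESeq2, 1403 without a filter, 6327 with weights, 280 in limma on log2(FPKM + 0.1), and 0 to 5591 with a library left out. With the replicate block, 0 genes and 0 matrix genes passed (adjusted p = 0.0854 for SPARC, 0.0923 for MATN2, 0.0952 for LAMA1 and 0.11 for EFEMP2). In that fit 11 matrix genes higher and 3 lower had an unadjusted p under 0.05. These are 43.75% of the 32, with HSPG2, TNXB, BCAN and MGP among the 32, against 20.9% of all genes. The correlation of deviations between same-numbered libraries was -0.07, 0.04 and -0.04, and NC libraries 1 and 3 were each closer to another number than to their own. Deviations from the mean of 3 libraries depend on each other, so these values cannot tell whether same-numbered libraries share a culture or batch.

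Leaving out single libraries gave 0 to 5 calls among laminin receptors (1 as reported), 0 to 9 among glycoprotein receptors, 0 to 9 among TGF-beta genes and 0 to 2 among the further matrix genes. The upper ends were without NC library 3, where 16.9% of all genes were higher and 18.3% lower. With any other library left out, 0 genes of the whole table passed. DESeq2 gave 4 for glycoprotein receptors and 5 for TGF-beta genes, against 0 and 1 in edgeR. It called 5.21% of all genes higher and 4.84% lower.

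None of the 4 matrix genes with an adjusted p under 0.05 as reported turned direction in any alternative run. Of the others, leaving out single libraries gave LAMB2 -0.12 to 0.59, NID2 -0.022 to 0.63, THBS3 -0.21 to 0.36, LTBP1 -0.0047 to 0.62, LTBP3 -0.11 to 0.50, DCN -0.32 to 0.25 and LUM -0.50 to 0.21 on the log2 scale, and only leaving out NC library 3 turned the sign of these 7. AGRN ranged from -0.63 to 0.039, above 0 without NC library 1. With weights, LAMB2 had -0.095, THBS3 -0.20, DCN 0.23, LUM 0.23 and LTBP3 -0.10. In limma, DCN had 0.012 on log2(FPKM + 1) and 0.025 on log2(FPKM + 0.1), where AGRN had 0.039. The cause of these shifts was not tested.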
